A study of Mus musculus with 6 samples.

Results

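The 10 clock genes described here were Clock, Npas2, Arntl (also written Bmal1), Per1, Per2, Per3, Cry1, Cry2, Dbp and Bhlhe40, out of 21896 protein-coding genes in the RefSeq table of GRCm38.p6. They were taken as a named list, and every peak in a gene or within 10 kb of it on either side was used. The chromatin was that of MIN6 cells, a mouse insulin-secreting line labelled as beta cells, profiled by CUT&RUN, in which an antibody guides a nuclease to its target in permeabilised cells and the released DNA is sequenced. The study made 6 libraries in 3 groups, each with 2 replicates. One group used an antibody against the cells' own MafA, diluted 1:100, and the other groups used an H3K4me3 antibody, the positive control, and IgG, the negative one. Every library came from 500000 cells of the same line, opened with 0.01% digitonin, and nothing in the labels says that the replicates were separate cultures. Peak lists of the MafA and H3K4me3 libraries were analysed, and IgG lists were not analysed here.

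The circadian clock is a feedback loop of transcription that most cells run. CLOCK, or its close relative NPAS2, pairs with ARNTL and switches on genes through the E-box, a short DNA motif. PER and CRY proteins are among the products and return to block the pair, while DBP and BHLHE40 carry the rhythm to other genes or damp it. In beta cells the clock is known to set the daily course of insulin release, and MafA is a beta cell transcription factor that activates insulin genes through MAF recognition elements.

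The lists held 33013 and 42747 MafA peaks and 16020 and 16904 H3K4me3 peaks in replicates 1 and 2. Of these, 38 and 40 MafA peaks and 22 and 22 H3K4me3 peaks lay at the clock genes. Fold enrichment, the value given for each peak below, is the authors' own ratio of signal at the peak's highest point (the summit) to the background modelled there. A region is the full stretch spanned by peaks that overlap between the replicates, and its value is the mean of the strongest peak of each. Parts of a region can thus hold a peak in only 1 replicate. Read totals are not in the lists, but whole fragment numbers at the summits could be recovered, with a median of 25 and 46 per MafA peak and 759 and 263 per H3K4me3 peak. Background is given below in the peak caller's scaled units. In these, a MafA fragment counts as 1 in replicate 1 and as 0.747 in replicate 2. Whole fragments and background of replicate 2 are thus in unlike units, and their ratio is not the fold enrichment. As a check of the label, H3K4me3 marked an end of 6 of 7 beta cell genes (Ins2, Pdx1, Nkx6-1, Slc2a2, Iapp and Mafa, not Ins1) and 1 of 6 genes of other cells (Gcg) in each replicate.

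The promoters of 8 clock genes were in RefSeq's table of sequences (GRCm38.p6), as 12 windows of 300 bases that run from 250 bases before a start site to 50 after it. Per2 and Bhlhe40 had no entry. All 12 windows lay under an H3K4me3 region, and 7 windows of 5 genes (Arntl, Per1, Cry1, Cry2 and Dbp) were also touched by a MafA region. A window could be touched by the peak of 1 replicate only. No replicate 1 peak reached the Arntl window that starts at 113207215. At the Per1 and Cry2 windows printed below, replicate 1 peaks reached only the edges. Over all 32851 windows in the table, 41.1% touched an H3K4me3 region and 13.5% a MafA region, and 29.4% of those at H3K4me3 touched a MafA region. The windows below are those with a match to a motif searched on both strands, which is in capitals. Each runs 5′ to 3′ on the strand of its gene.
Cry1, E-box, chr10:85185005-85185304, minus strand: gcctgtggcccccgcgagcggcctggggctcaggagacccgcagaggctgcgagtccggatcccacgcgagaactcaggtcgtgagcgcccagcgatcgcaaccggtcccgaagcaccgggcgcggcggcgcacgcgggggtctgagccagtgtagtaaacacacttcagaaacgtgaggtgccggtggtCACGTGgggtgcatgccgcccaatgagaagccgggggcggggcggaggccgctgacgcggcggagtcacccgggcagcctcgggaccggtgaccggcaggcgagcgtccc
Per1, E-box, chr11:69098699-69098998, plus strand: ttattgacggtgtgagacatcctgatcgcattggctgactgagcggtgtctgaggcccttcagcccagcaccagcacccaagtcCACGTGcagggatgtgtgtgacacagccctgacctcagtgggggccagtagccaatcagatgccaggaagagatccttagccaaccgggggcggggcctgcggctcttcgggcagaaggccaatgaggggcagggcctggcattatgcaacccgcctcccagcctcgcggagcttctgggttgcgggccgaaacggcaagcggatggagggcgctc
Cry2, MAF core, chr2:92434020-92434319, minus strand: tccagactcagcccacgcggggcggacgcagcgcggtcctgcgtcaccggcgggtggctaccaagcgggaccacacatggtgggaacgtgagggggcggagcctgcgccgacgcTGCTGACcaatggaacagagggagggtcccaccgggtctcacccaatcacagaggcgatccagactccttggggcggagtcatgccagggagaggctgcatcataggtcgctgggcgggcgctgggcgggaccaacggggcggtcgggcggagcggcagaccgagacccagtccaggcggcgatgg
Clock, MAF core, chr5:76303453-76303752, minus strand: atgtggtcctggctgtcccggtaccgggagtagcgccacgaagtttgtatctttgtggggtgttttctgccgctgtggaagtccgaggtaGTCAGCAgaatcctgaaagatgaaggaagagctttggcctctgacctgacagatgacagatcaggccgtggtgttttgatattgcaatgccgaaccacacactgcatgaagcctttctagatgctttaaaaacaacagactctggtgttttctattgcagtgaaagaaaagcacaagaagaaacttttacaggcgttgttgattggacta
Per3, D-box, chr4:151044616-151044915, minus strand: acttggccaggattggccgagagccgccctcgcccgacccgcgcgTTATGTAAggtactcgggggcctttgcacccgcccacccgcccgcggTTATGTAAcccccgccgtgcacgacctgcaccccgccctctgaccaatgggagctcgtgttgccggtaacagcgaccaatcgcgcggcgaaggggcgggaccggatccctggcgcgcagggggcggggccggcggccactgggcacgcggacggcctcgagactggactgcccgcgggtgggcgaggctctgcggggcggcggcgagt

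The E-box CACGTG, the motif of the CLOCK and ARNTL pair, was in 2 of the 12 windows, at position -60 from the start site of Cry1 and -166 from one of Per1. It was in 7.15% of all windows. The MAF core TGCTGAC, or its reverse GTCAGCA, was in 2 of the 12, at -136 from the start of Cry2 and -160 from one start of Clock, and in 4.67% of all windows. The D-box TTATGTAA, a motif bound by DBP and its relatives, was found at 2 places in the Per3 window, -205 and -158 from the start, and in 0.938% of all windows. Neither the D-box form TTACGTAA nor the cAMP response element TGACGTCA was in any of the 12. No match overlapped another. These shares are over all windows, whose median GC content was 52.7%, and were not taken over windows at H3K4me3 alone. The printed Clock window had 47.0% GC and the rest of the 12 had 60.3% to 76.7%. The Arntl windows overlapped each other, as did a pair of Clock windows. Of the 5 printed windows, that of Cry1 held MafA summits, at -128 and -176 from the start in replicates 1 and 2. Those of the region over the Cry2 window were downstream of it, at 169 and 237. The Clock and Per3 windows with a match lay under no MafA region. A match describes the letters of a window and is not a site of binding.

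All 10 clock genes had a MafA region found in both replicates. The share was 44.0% of all protein-coding genes and 61.2% of the 12209 genes marked by H3K4me3 within 1 kb of an end. Among marked genes between the shortest and the longest clock gene in length (5104 to 169539 bp) it was 60.8%. The 10 genes held 27 regions, from 1 at Clock and Per3 to 7 at Cry2, and 4 genes (Arntl, Per2, Cry1 and Cry2) had at least 3, against 16.1% of marked genes. The median clock gene had 2 regions and the median marked gene 1. Cutting each list to its 16020 highest peaks by fold enrichment left 11 regions, at 9 genes, where 22.9% of all protein-coding genes had one. A window of 50 kb gave 43 regions at 10 genes, with 66.1% of all genes having one. The list was drawn up with results of these data known, so these counts describe it and carry no test.

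The 27 regions had a median fold enrichment of 5.11, against 5.75 over all MafA regions. The 90th percentile of all 25894 MafA regions, a fold enrichment of 11.9, is passed by 10% of regions by definition, and 3 of the 27 passed it, a share near that. They lay at Per2, Clock and Arntl, so 3 of the 10 genes had such a region, as did 9.21% of marked genes and 15.0% of those with any MafA region. The order of the genes by their strongest region began with Per2 at 38.0 ± 0.681 (mean ± SD, n = 2 in each case), Clock at 18.6 ± 1.02 and Arntl at 15.6 ± 2.64. The replicates of these genes did not overlap, although Clock and Arntl were close, with 17.8 in the lower replicate of Clock and 17.5 in the higher of Arntl. Then came Cry2 at 8.78 ± 0.894, Bhlhe40 at 7.89 ± 2.31, Per3 at 7.64 ± 1.61, Per1 at 6.92 ± 0.280, Dbp at 6.39 ± 0.473, Cry1 at 5.99 ± 2.15 and Npas2 at 5.50 ± 0.255. From Cry2 down, the replicates of each gene overlapped those of the next, so neighbours did not differ beyond their spread from there on. The median percentile of the strongest region was 73.4 over the clock genes and 55.4 over marked genes with a region, both ranked among all MafA regions. With each list cut to its 16020 highest peaks, it was 43.2 over the 9 clock genes that kept a region. That rank is among the remaining regions only, so it cannot be set against 73.4 or 55.4. The highest fold enrichment of these 9 genes was unchanged by the cut. The maximum of a gene is taken over all its regions, of which clock genes had more.

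**Figure D1:**
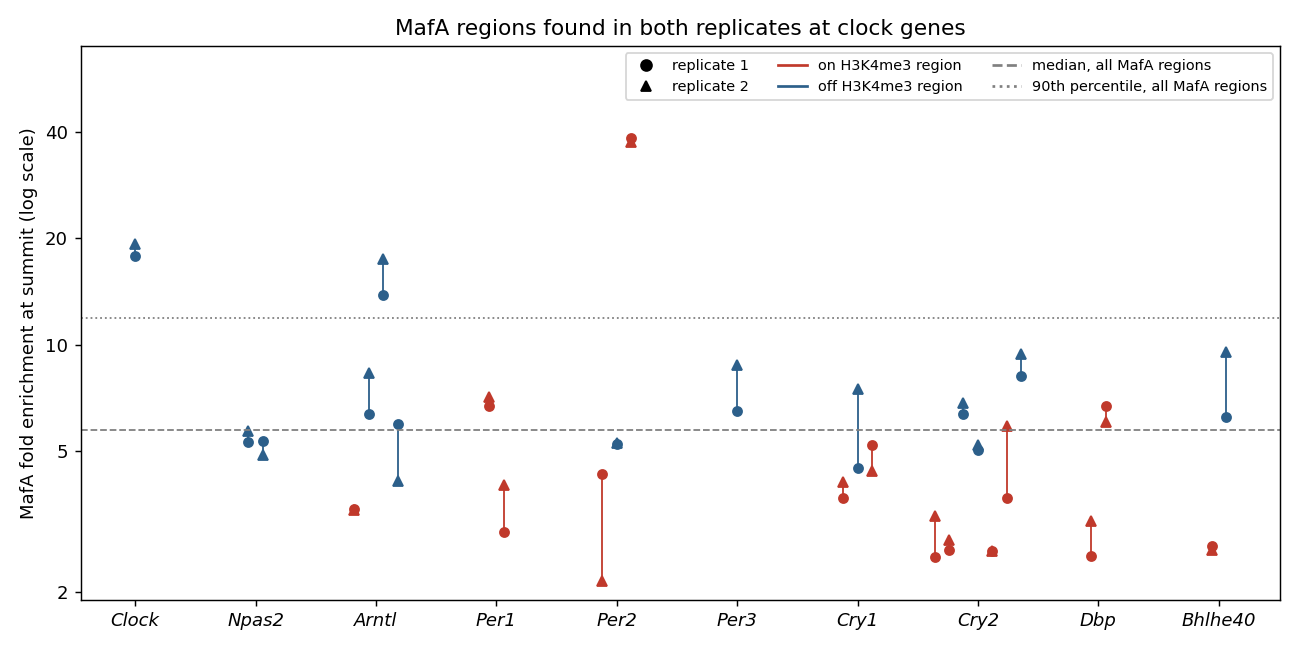
Fold enrichment (log scale) of the 27 MafA regions at the 10 clock genes, with a circle for replicate 1 and a triangle for replicate 2 of each region (red on an H3K4me3 region, blue off one). Per2, Clock and Arntl each have 1 region above the 90th percentile of all MafA regions (dotted, 11.9), and 24 regions lie below it.

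Among the activators of the loop, Clock had a single region, 22668 bp downstream of the nearest of its 3 RefSeq start sites, inside the gene on chromosome 5 from 76280294 to 76282075. Clock encodes the DNA-binding partner of ARNTL. Fold enrichment there was 17.8 in replicate 1 and 19.3 in replicate 2, with 167 and 360 fragments at summits 1 bp apart, and no H3K4me3 region lay over it. It was at the 97.0 percentile of MafA regions. The H3K4me3 region over the start sites of Clock held no MafA region. Another 2 peaks of each MafA replicate within the Clock window had no partner in the other replicate, with 3.57 and 5.73 in replicate 1 and 3.75 and 5.80 in replicate 2.

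Npas2, whose protein can take the place of CLOCK, had the weakest maximum of the list. Its regions lay inside the gene on chromosome 1, the first from 39196392 to 39196817, 2336 bp downstream of the start site, with 5.32 and 5.68. The other lay from 39217827 to 39218288, 23892 bp downstream, with 5.35 and 4.86 and only 13 and 21 fragments. Both were below the median of all MafA regions (5.75) and off H3K4me3.

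Arntl, the obligate partner of CLOCK, held 4 regions on chromosome 7, all inside the gene. The strongest, from 113250631 to 113251499, lay 43594 bp downstream of the start sites with 13.8 and 17.5 in replicates 1 and 2, from 51 and 120 fragments. A region further downstream, from 113253309 to 113254314, gave 5.97 and 4.13, and one from 113226780 to 113227811 gave 6.35 and 8.32. None of these 3 was on H3K4me3. The remaining region, from 113206939 to 113207995, lay under an H3K4me3 region and spanned the RefSeq start sites of Arntl, at 113207465 and 113207511. Only the peak of replicate 2 covered these sites, as that of replicate 1 began downstream of them, at 113207541. The region was weak by fold enrichment, with 3.44 and 3.40. It nevertheless rested on 82 and 172 fragments, more than the strongest region, over a modelled background of 23.2 and 37.0 against 2.77 and 4.17 there.

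The repressor gene Per2 held the strongest region of the list, at the 99.9 percentile of all MafA regions. PER2 enters the nucleus with CRY and holds back the CLOCK and ARNTL pair. The region lay on chromosome 1 from 91454553 to 91460115, across the end of the gene at 91459351, and gave 38.5 in replicate 1 and 37.5 in replicate 2. Its summits, 28 bp apart, were inside the gene, 3441 bp from that end, and held 315 and 652 fragments over a background of 7.21 and 12.0. The replicates drew the region differently. Replicate 1 had 2 peaks there, the second with 3.26 over the gene end, and replicate 2 had 1 peak of 5441 bp across both. With 50% reciprocal overlap the region was therefore lost and the strongest value left at Per2 was 5.25, that of a region from 91451406 to 91452347. The other Per2 region, from 91413518 to 91414763, lay 1214 bp outside the opposite end, nearest to Hes6, with 4.30 and 2.15 and summits 690 bp apart.

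Per1, a PER gene also induced by glucocorticoids and, in the brain, by light, had a pair of regions on chromosome 11, both over H3K4me3. The stronger, from 69096742 to 69099160, gave 6.72 and 7.12 and spanned the gap between a pair of H3K4me3 regions. Its summits differed by 526 bp, so its mean joins separate positions. The other, from 69099596 to 69100358, had its summits at -333 and -294 bp from the downstream of the start sites and gave 2.94 and 4.01. Near the annotated start of the gene, at 69095108, peaks of the replicates did not overlap: replicate 1 had 2.98 from 69095011 to 69095470 and replicate 2 had 5.43 from 69094426 to 69094793. Replicate 2 had another unmatched peak, of 3.30, from 69092595 to 69092910, where H3K4me3 replicate 1 had a peak of 2.46 that its partner lacked.

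Per3, a PER gene that is dispensable for the core rhythm in mice, had 1 region, on chromosome 4 from 150987140 to 150987833. It lay 9185 bp beyond the gene's downstream end and thus just within the window, 56976 bp from the start site, and gave 6.50 and 8.77 from 16 and 39 fragments. No other MafA peak of either replicate lay at Per3, and a window of 5 kb left the gene with none.

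**Figure D2:**
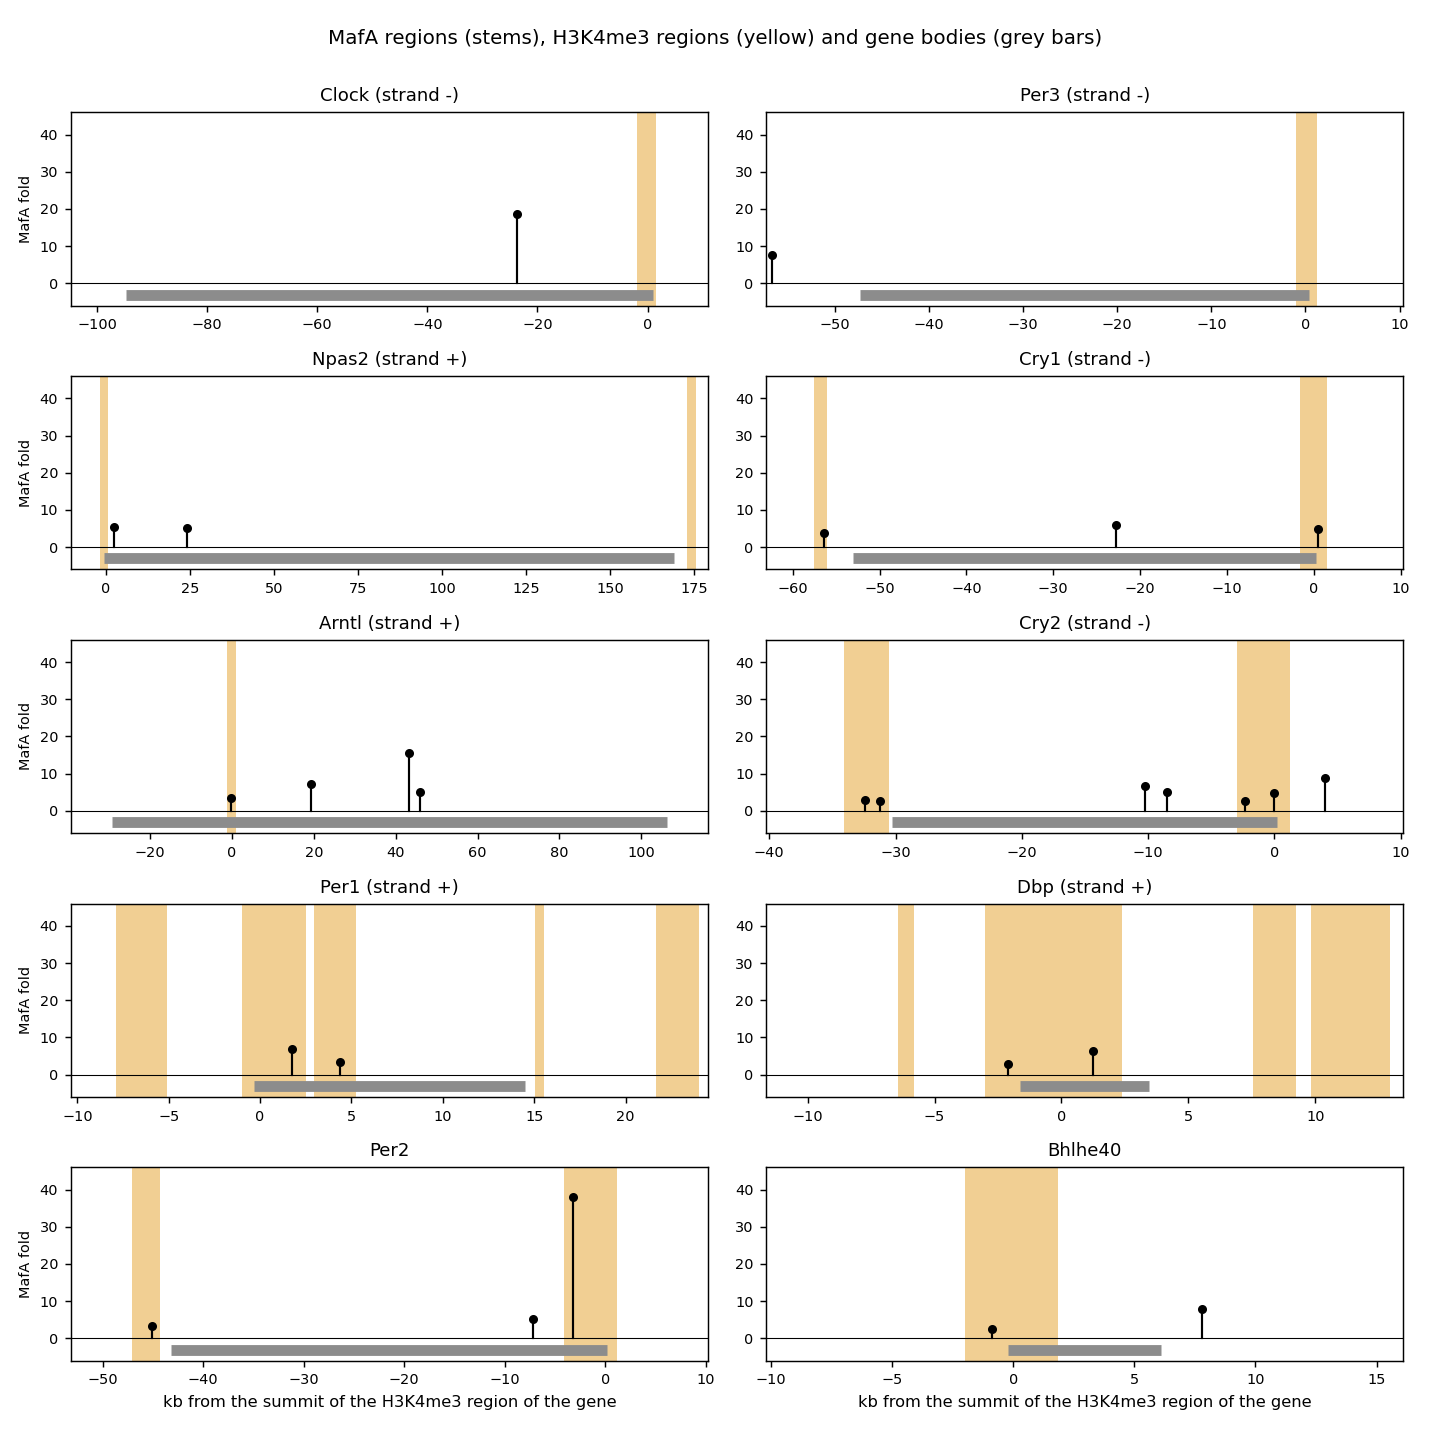
Position of MafA regions (stems, height is mean fold enrichment of 2 replicates) and H3K4me3 regions (yellow bands) along each clock gene (grey bar), in kb from the summit of the gene's strongest own H3K4me3 region. The strong Clock and Arntl stems stand away from the bands, and the Per2 stem of 38.0 stands at the edge of one.

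The CRY proteins are the main repressors of the CLOCK and ARNTL pair. Cry2 had 7 MafA regions on chromosome 2, a number that 3.46% of marked genes reached. The strongest lay at -3834 bp from the start site, upstream of it, from 92437367 to 92438140, with 8.15 and 9.41. H3K4me3 replicate 2 had a peak of 6.41 there and replicate 1 had none, so it counted as off H3K4me3. Next were a pair inside the gene, from 92423401 to 92424290 with 6.39 and 6.85 and from 92424856 to 92425645 with 5.02 and 5.20. The remaining 4 had means from 2.61 to 4.79 and all overlapped H3K4me3. One of them spanned the start site and the printed window, with 3.69 and 5.90. Its 98 and 326 fragments were the most of any Cry2 region. In replicate 1 it was made of 2 peaks, from 92433733 to 92434036 and from 92434312 to 92435411. The start site, at 92434069, lay between them, and only the peak of replicate 2 covered it and the whole window. Another 2 of the 4 regions lay beyond the downstream end of the gene in the H3K4me3 region of Mapk8ip1.

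Cry1 had 3 regions on chromosome 10. That of the printed promoter, from 85184714 to 85185359, gave 5.19 and 4.40. It had 168 and 323 whole fragments over a background of 31.6 and 54.0 in scaled units. By fold enrichment it ranked at the 32.5 percentile and by fragments at the 97.9 percentile. Inside the gene, from 85161389 to 85162643, values were 4.46 and 7.51 with summits 444 bp apart. Replicate 1 had 2 peaks there, and the weaker, with 3.55, was the nearer to the replicate 2 summit. The mean of 5.99 thus joins separate positions. The last region, from 85128209 to 85128800, lay 2900 bp beyond the downstream end, nearest to Mterf2, with 3.69 and 4.10.

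The output genes were smaller and had 2 regions each. Dbp encodes a factor that drives rhythmic genes through D-boxes. On chromosome 7 its inner region, from 45707124 to 45709308, gave 6.73 and 6.06 with summits 42 bp apart, 2753 bp downstream of the start site. The region over the start site, from 45704149 to 45705466, gave 2.52 and 3.17 with summits 15 bp apart, and Car11 was as near to it as Dbp. Bhlhe40, which encodes a repressor that binds E-boxes, had a region just outside the gene on chromosome 6, from 108668272 to 108669027, with 6.26 and 9.53. The region over its other end, from 108658862 to 108660867, gave 2.69 and 2.63 and its summits were 545 bp apart. Only the peak of replicate 2 reached that end, at 108660629, as that of replicate 1 stopped at 108659813. For the gene body alone this weaker region was the one left at Bhlhe40.

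Regions on H3K4me3 were mostly the weaker ones by fold enrichment. Of the 27, 14 overlapped an H3K4me3 region, against 23.5% of all MafA regions and 33.9% of the 14747 regions in or within 10 kb of marked genes. The 14 had a median fold enrichment of 3.45 (4.40 over all MafA regions on H3K4me3), and the 13 elsewhere one of 6.62 (6.14 over all such regions). All but 3 of the 14 (Per2, the stronger Per1 region and the inner Dbp region) were lower than the lowest of the 13, which was 5.05. Fragments ran the other way, with medians of 66.5 and 160 in replicates 1 and 2 on H3K4me3 and 35 and 88 off it. The modelled background, in scaled units, was 14.0 and 24.9 on H3K4me3 and 4.51 and 6.00 off it. Its part in the low fold enrichment was not tested.

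**Figure D3:**
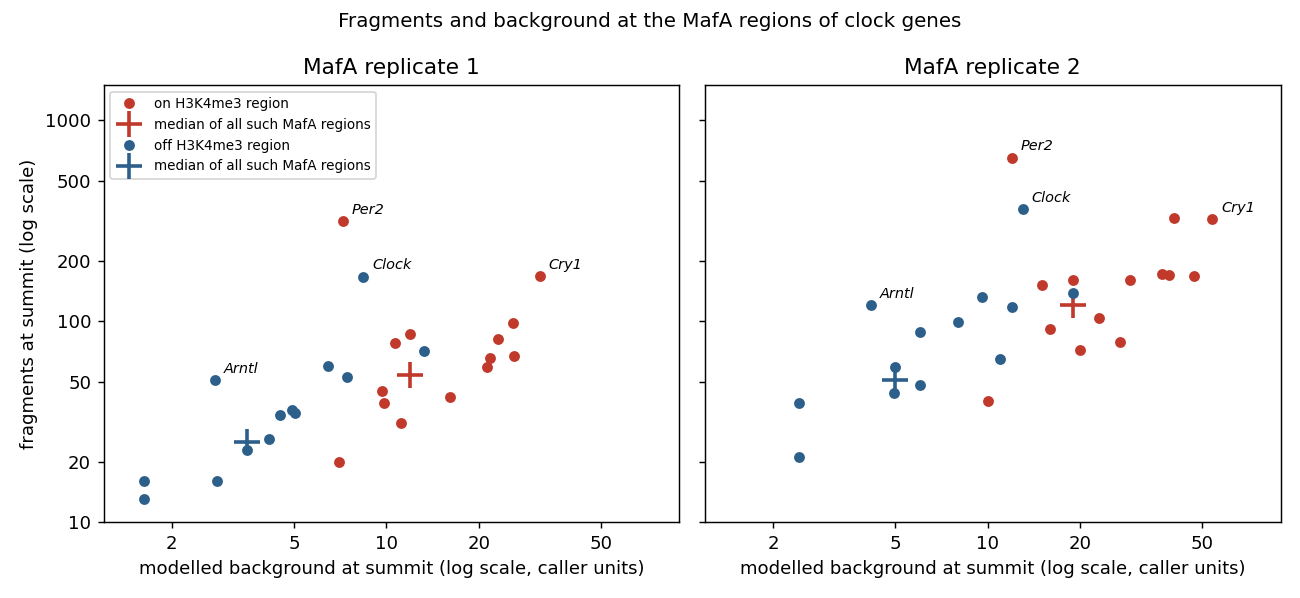
Fragments at the summit against the modelled background (both log scales) for the 27 MafA regions in each replicate (red on H3K4me3, blue off it), with crosses at the medians of all MafA regions on and off H3K4me3. Per2 and Clock stand above regions of like background in both replicates, and the Cry1 promoter region has the highest background. Fragments are whole counts, and background is in the peak caller's scaled units.

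The summits of most of the MafA regions on H3K4me3 lay away from the H3K4me3 summits. At 4 of the 14 they were within 500 bp of the H3K4me3 summits, against 68.7% of the 6078 such regions in the genome. The median distance was 939 bp at the clock genes and 260 bp overall. The 4 were those over the starts of Arntl (191 bp), Cry1 (439 bp) and Cry2 (27 bp) and the one in the Mapk8ip1 region near Cry2 (488 bp). At Per2 the distance was 3219 bp. Within 1 kb of a gene end, 5 clock genes (Per2, Cry1, Cry2, Dbp and Bhlhe40) had a MafA region, against 34.4% of marked genes.

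H3K4me3, a mark of active or poised promoters, lay within 1 kb of an end of 9 clock genes, against 55.8% of all protein-coding genes. The exception was Arntl, whose mark covered RefSeq start sites far inside the annotated gene. The strongest H3K4me3 region nearest to each gene ranged from 11.4 ± 0.566 at Npas2 to 33.4 ± 1.04 at Cry2 (mean ± SD, n = 2), with a median of 16.9 against 17.9 over marked genes. In height 4 of the 10 were above that median. In width all 10 were above the median of marked genes, 2157 bp, with a median of 3454 bp. The widest were Dbp at 5384 bp and Per2 at 5314 bp, both at the 99.1 percentile of all H3K4me3 regions, and the Dbp region covered 78.7% of the gene. The narrowest was Per3 at 2239 bp. Car11 was as near to the Dbp region as Dbp, and Gm38529 was as near to the Per3 region as Per3.

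**Figure D4:**
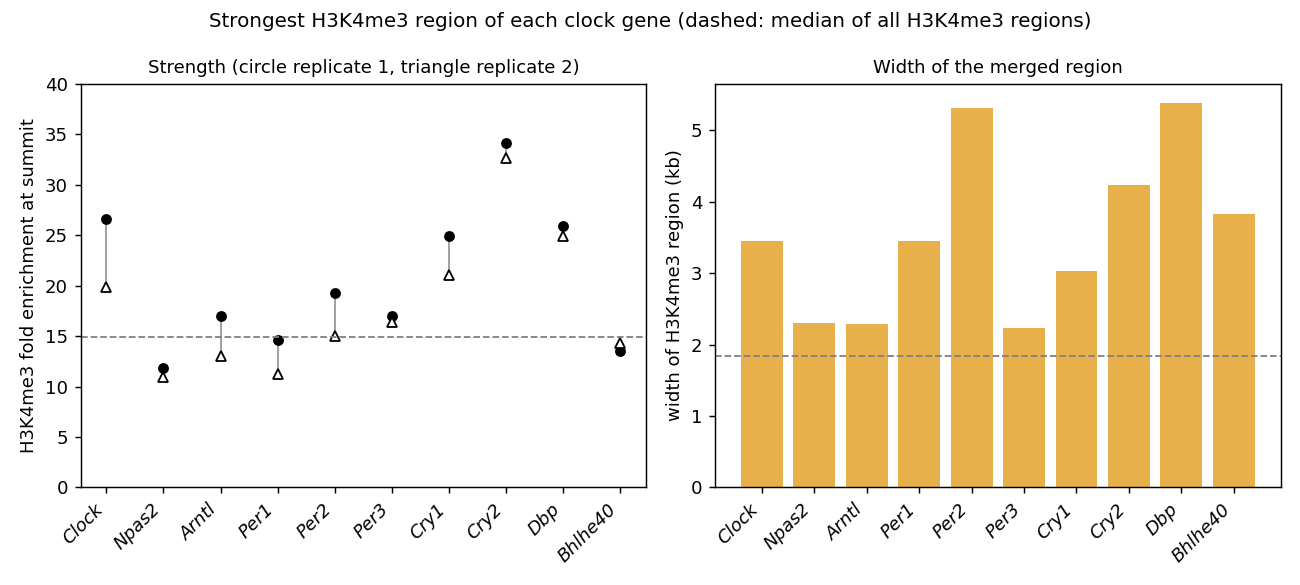
Fold enrichment (left, both replicates) and merged width in kb (right, bars from 0) of the strongest H3K4me3 region of each clock gene, with the medians of all H3K4me3 regions dashed. Cry2 is highest at 33.4 and Dbp and Per2 are widest at over 5 kb. The Dbp and Per3 regions are equally near to another gene.

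The replicates placed most MafA summits close together. At 20 of the 27 MafA regions the summits lay within 100 bp of each other, and the median gap was 42 bp, against 55 bp and 64.9% within 100 bp over all regions. Fold enrichment was higher in replicate 2 at 18 of 27 regions, as at 61.6% of all. Of the MafA peaks at clock genes, 6 of 38 in replicate 1 and 13 of 40 in replicate 2 had no partner, against 18.8% and 39.2% over the full lists. The unmatched peaks had fold enrichments from 2.98 to 5.73 in replicate 1 and from 2.17 to 5.80 in replicate 2, each below the strongest matched region of its gene.

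A further list of 22 genes of the pathway gave the surroundings: paralogues, nuclear receptors of the second loop, D-box factors, kinases and ubiquitin ligases that set the stability of PER and CRY. All 22 were marked by H3K4me3. A MafA region lay at 17 of the 22, against the 61.2% of marked genes given above. The 5 without were Arntl2, Ciart, Csnk1d, Fbxl21 and Timeless. The strongest was at Bhlhe41, the paralogue of Bhlhe40, with 26.4 and 31.6, outside the gene and over H3K4me3, at 145855051 to 145857015 of chromosome 6. Rora, a nuclear receptor that activates Arntl, followed with 19.3 and 32.7, the largest of its 18 regions in a gene of 734843 bp. Prkaa1 (14.9 and 16.9), the AMP kinase subunit that destabilises CRY, and Btrc (15.7 and 15.2), a ligase adaptor for PER, came next. Nr1d2 (15.2 and 14.1) encodes a REV-ERB receptor that represses Arntl. These 5 of the 22 had a region past the 90th percentile, against the 9.21% of marked genes and 15.0% of those with any MafA region given above. Neither share is matched for length. Btrc, like Rora, is long, with 9 regions in 169656 bp, where the median marked gene had 23223 bp and 1 region.

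**Figure D5:**
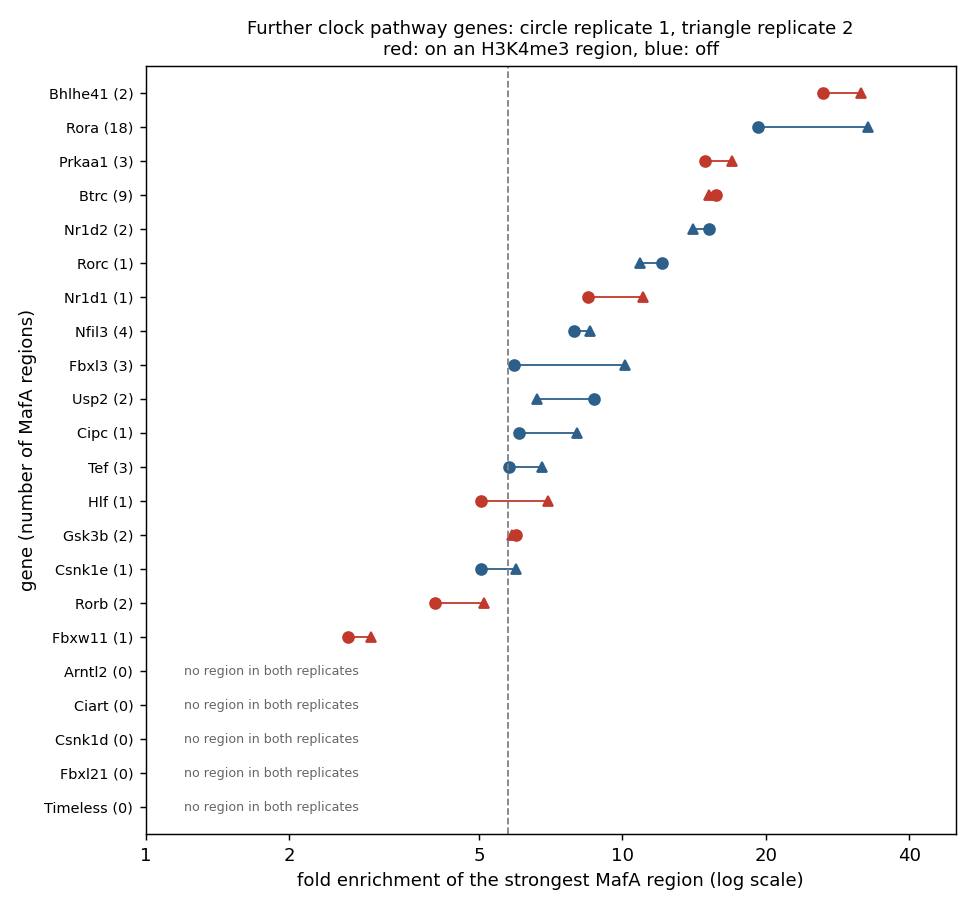
Fold enrichment (log scale) of the strongest MafA region of each of 22 further clock pathway genes in replicate 1 (circle) and 2 (triangle), red on H3K4me3 and blue off it, with the number of regions in brackets and the median of all MafA regions dashed. Bhlhe41 and Rora are highest, and 5 genes have no region in both replicates.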

How the data were processed

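The deposited files used were 4 narrow peak lists, 1 per MafA and H3K4me3 library, from 150 bp paired reads. Per the submitters' processing notes, peaks were called with MACS2 on GRCm38 (mm10). The MACS2 version, aligner, control library and duplicate handling are not given in the sources used here. Fold enrichment was used as deposited, a linear ratio taken at each summit. The deposited significance columns hold −log10 p and −log10 q, with a lowest −log10 q between 2.0 and 2.04. The deposited score was not used.

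Peaks sharing at least 1 bp between replicates were merged into regions. Genes, ends and promoters came from RefSeq tables of GRCm38.p6; exons were not used. Fragments were recovered by seeking a scaling factor from 0.2 to 1 for which fold enrichment, with a pseudocount of 1, and p-value both fit whole fragments within a relative tolerance of 0.0001. The factors were 0.415 and 0.997 for H3K4me3 and 1 and 0.747 for MafA, and solved at least 99.96% of peaks. Tested on simulated data, the routine returned the right fragments for 99.95% to 100% of peaks, and the overlap routine found all 3000 planted overlaps.

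The members and lists were chosen with earlier results of these data known. All 10 genes are named, with every region for genes with up to 5 and the top 3 otherwise, and the 5 strongest further genes. No test was run, since there is 1 condition, and shares over all genes or regions are given for comparison. Scripts ran in Python 3.11.15 with scipy 1.17.1, pandas 2.3.3 and numpy 2.4.6, and plots were drawn with matplotlib 3.10.9.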

Additional observations from a re-analysis of the deposited data

How the results depend on the processing

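The number of clock genes with a MafA region was 9 or 10 under all 9 alternatives. With each list cut to its 16020 highest peaks, 9 genes had one. The 27 regions became 11 with those strongest peaks and 43 with 50 kb either side, and 40 and 38 without replicate 1 and 2. The share of all protein-coding genes with a region, 44.0%, became 22.9% with the strongest peaks, 31.7% for the gene body only and 66.1% with 50 kb, and ranged from 48.3% to 58.5% when a replicate was left out. H3K4me3 marked an end of 9 genes in each of 7 alternatives. Of the 22 further genes, between 13 and 19 had a region under the alternatives, against 17. The median percentile of the strongest region, 73.4, became 43.2 with the strongest peaks, 62.6 for the gene body, 89.1 by fragments and 86.5 by −log10 q, and ranged from 73.2 to 86.5 without a replicate. Counts fall with fewer peaks or a narrower window and rise with a wider window, or without a replicate because no partner peak is then needed, by construction. With the strongest peaks, the percentile is a rank among the remaining regions only, and the 9 genes with a region kept their highest values. The gene body alone left out the strongest regions of Cry2 and Bhlhe40 and the only one of Per3, which lay outside the gene. The cause of the changes in percentile under the remaining alternatives was not tested. Of 86 values of single genes, 4 differed by over 1 SD: Per2 to 5.25 with 50% reciprocal overlap, Per3 to 10.8 with 50 kb, and Cry2 to 6.62 and Bhlhe40 to 2.66 for the gene body. In 4 further cases the gene had no region. Many of the 86 could not differ by construction. Of 2 replicates, each lies within 1 SD of their mean, so leaving 1 out cannot pass that limit where the same region stays strongest. A cut that removes only weaker peaks leaves the highest value as it was. The 86 values are therefore no measure of stability. Counting only regions whose nearest protein-coding gene is the clock gene, an alternative chosen after seeing the data, left 24 regions and all 10 genes. No paired analysis was possible because the results come from no test. The median MafA peak rests on 25 and 46 fragments in replicates 1 and 2, and read totals were not used here.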
